A study of Mus musculus with 12 samples.

Results

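The question addressed here is whether removal of the ovaries changed the same genes in both epithelial fractions of the mouse mammary gland, or changed a gene more in one fraction than in the other. The measure is a difference of 2 effects, namely ovariectomized (ovx) minus control in MaSC-enriched cells, minus ovx minus control in luminal cells. All 8 of the 8 RNA samples of the series enter it, as 4 MaSC-enriched and 4 luminal samples measured on 12 Illumina BeadChip arrays. The ovx groups held female FVB/NJ mice whose ovaries were taken out at 8 weeks of age and whose glands were collected 4 weeks later, with 6 mice in each pool. The control groups held female mice for which the labels give no age, sham surgery or pool size, so a match in these cannot be checked. Each of the 4 mouse pools, 2 ovx and 2 control, gave both fractions, after cells bearing CD45, CD31 or TER119 (blood and endothelial markers) had been removed. Cells with high CD29 and CD24 on their surface (CD29hi CD24+) form the MaSC-enriched fraction, named for mammary stem cells, in which basal and myoepithelial cells are also found. Cells with low CD29 and CD24 on their surface (CD29lo CD24+) form the luminal one, and the labels state purities over 90%. A second array was run for 4 of the 8 RNAs, and the arrays lay on 2 beadchips, neither of which held all samples.

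Oestrogen and progesterone from the ovary act in the mammary gland through receptors that lie mainly in a subset of luminal cells. These cells pass the signal on to their neighbours, basal cells included, through secreted factors such as RANK ligand and Wnt proteins. Basal cells, which carry little or no oestrogen and progesterone receptor, are therefore thought to sense ovarian hormones largely at second hand.

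Each level below is a normalized log2 signal of a gene's brightest probe, and each effect is a difference of such levels, so that 1 unit is a doubling. The basal and myoepithelial marker list averaged 11.76 to 12.36 in the 4 MaSC-enriched samples and 7.55 to 8.27 in the luminal ones, and the luminal marker list 9.48 to 10.62 and 11.63 to 12.26. Endothelial markers, whose cells the sort was meant to remove, averaged 10.05 to 11.82 in MaSC-enriched and 8.43 to 9.31 in luminal samples. Between 12994 and 18903 of the 45281 probes were detected per array. Control MaSC-enriched replicate 1 had the lowest number. On that array a probe counted as detected only above a log2 signal of 7.29, against 5.73 to 5.93 on the others. The control replicate 2 pool stood apart in both fractions. Its DNA replication and mitosis genes averaged 10.48 in MaSC-enriched and 10.84 in luminal cells, while the other 6 samples lay between 7.19 and 8.10.

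No probe passed the test of unequal change. In the limma fit 0 of 20995 probes (0%) had a difference of effects with an adjusted p under 0.05. An unadjusted p under 0.05 was found for 952 (4.53%), of which 534 (2.54%) were positive and 418 (1.99%) negative. A share near the threshold of 0.05 would be found if no probe differed, so this count alone shows no unequal change. A positive difference means that ovx raised the gene more, or lowered it less, in MaSC-enriched than in luminal cells. The smallest adjusted p was 0.0557, for Trim9 and Nrcam. The median standard error of the difference was 0.59, against 0.42 for an effect in a single fraction. With the mouse pool as a replicate block the number passing was also 0, and Trim9 and Nrcam had an adjusted p of 0.299. Under other settings Trim9 passed in 8 and Nrcam in 6 of 25, for example with the pool as a random block (adjusted p = 0.0235 for Trim9 and 0.0268 for Nrcam) and with an offset of 50 (0.0402 for both). Over all 25 settings their adjusted p reached 1. Counts of passing probes under other settings lay between 0 and 113. In all, 113 (58 positive, 55 negative) passed when every signal under the highest detection floor was raised to it, 9 with the beadchip as a block and 2 with the pool as a random block. The shared floor makes dim samples equal and so removes spread between replicates. Kndc1, for example, had a limma adjusted p of 0.000824 there, though its difference shrank from −3.77 to −1.02. With 2 ovx and 2 control pools an exact test of a single gene cannot give a p below 0.333, so each p below rests on limma's spread shared across probes.

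**Figure D1:**
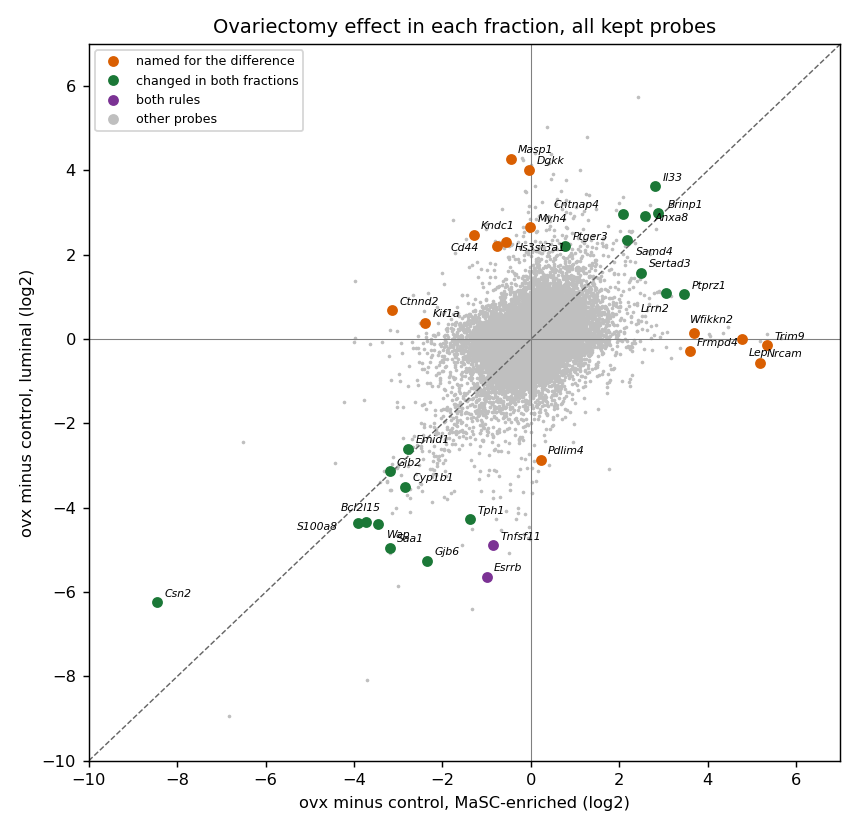
Ovariectomy effect (ovx minus control, log2) in MaSC-enriched cells on the x axis and in luminal cells on the y axis for each of 20995 probes. Orange points are the genes named for the difference, green ones the genes that changed in both fractions, purple ones meet both rules, and the dashed line marks equal effects. Trim9 and Nrcam lie far right at a luminal effect near 0, Esrrb and Tnfsf11 far down at small MaSC-enriched effects, and Csn2 lies low in both.

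Several genes known from nerve cells rose in MaSC-enriched cells of ovx mice while their probes stayed near background in luminal cells. Trim9, a ubiquitin ligase known from neurons, had signals of 10.55 and 11.02 in ovx MaSC-enriched cells, against 5.43 and 5.46 in control MaSC-enriched cells. In luminal cells it had 4.86 in each ovx sample, against 4.98 and 5.04 in controls. The 3 ovx MaSC-enriched arrays detected it and no other array did, so the probe was kept through that group alone. The rise in MaSC-enriched cells is at least 18.9-fold, and neither luminal group gave more than a bound. The limma adjusted p of 0.00617 belongs to the MaSC-enriched effect of 5.34, which takes undetected signals as they were, and not to this bound. Its difference of effects was 5.49 (SE 0.42, 95% interval 4.50 to 6.47, adjusted p = 0.0557), or 4.22 with each signal under its array's detection floor raised to that floor and 3.50 with all signals raised to the highest floor of any array.

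Nrcam, a neuronal cell adhesion molecule, had 10.69 and 11.14 in ovx MaSC-enriched cells, against 5.88 and 5.58 in controls. Its luminal signals were 4.99 and 5.04 in ovx, against 5.27 and 5.87 in controls. The ovx MaSC-enriched samples thus stood alone, with the other 6 samples at or near background. The difference was 5.74 (SE 0.48, 95% interval 4.60 to 6.87, adjusted p = 0.0557). With signals raised to the highest floor it was 3.62. A second, dimmer Nrcam probe gave 2.68 in the same direction.

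Frmpd4, which encodes a scaffold protein of synapses, followed the same pattern. Its signals were 9.37 and 9.72 in ovx MaSC-enriched cells, against 5.56 and 6.34 in controls, and 5.48 and 5.21 in ovx luminal cells, against 5.72 and 5.54 in controls. The difference was 3.87 (SE 0.51, adjusted p = 0.164), 2.71 with signals raised to their own detection floors and 2.26 with the highest floor. Of the neural adhesion and neuronal list, 17 genes were tested and 5 had a positive and 1 a negative difference with an unadjusted p under 0.05, where 2.8% and 2.32% of all 11292 genes did. The list holds Trim9, Nrcam and Frmpd4 themselves and was chosen with earlier results of these data known. Its shares are therefore given as a description. Of the 5, Bdnf did not rise in MaSC-enriched cells (effect −0.29) and fell in luminal cells. MaSC-enriched effects of the list ran both ways around a median of 0.27, with −2.26 for Cntn2, the 1 negative gene. The median difference of that list was 0.11, against 0.06 over all genes. Without the control replicate 2 pool it was 1.08.

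Lep and Wfikkn2 were the other named genes that rose in MaSC-enriched cells. Lep, the gene of the fat cell hormone leptin, had 9.84 and 11.20 in ovx MaSC-enriched cells, against 5.77 and 5.73 in controls. All luminal signals lay between 5.30 and 5.39, below detection in ovx and control. The rise in MaSC-enriched cells was at least 15.7-fold. The limma adjusted p of the MaSC-enriched effect, with undetected signals taken as they were, was 0.0226. The difference of effects was 4.77 (SE 0.64, 95% interval 3.28 to 6.27, adjusted p = 0.165).

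Other fat cell markers moved less than Lep in the same samples. Of the adipocyte list 6 of 11 genes were tested, with an average signal of 9.11 and 8.61 in ovx MaSC-enriched cells, against 7.28 and 6.95 in controls, and 6.46 and 6.98 in ovx luminal cells, against 5.95 and 6.04 in controls. Adipoq, the gene of adiponectin, had 8.24 and 6.88 in ovx MaSC-enriched cells, against 6.35 and 6.21 in controls (effect 1.28, adjusted p = 0.501), and was not detected in luminal samples. The median effect of the list was 1.31 in MaSC-enriched and 0.56 in luminal cells. The part of fat cells in the Lep result was not tested. In sorted bulk samples, fewer cells of a type and less RNA per cell cannot be told apart, here and below.

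Wfikkn2 encodes a secreted protease inhibitor that binds growth factors of the TGF-beta family. It had 9.63 and 10.03 in ovx MaSC-enriched cells, against 6.50 and 5.80 in controls, and no luminal array detected it. The difference was 3.54 (SE 0.48, adjusted p = 0.173), while a dimmer probe for the gene gave −1.47 (unadjusted p = 0.319), so the probes disagree.

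**Figure D2:**
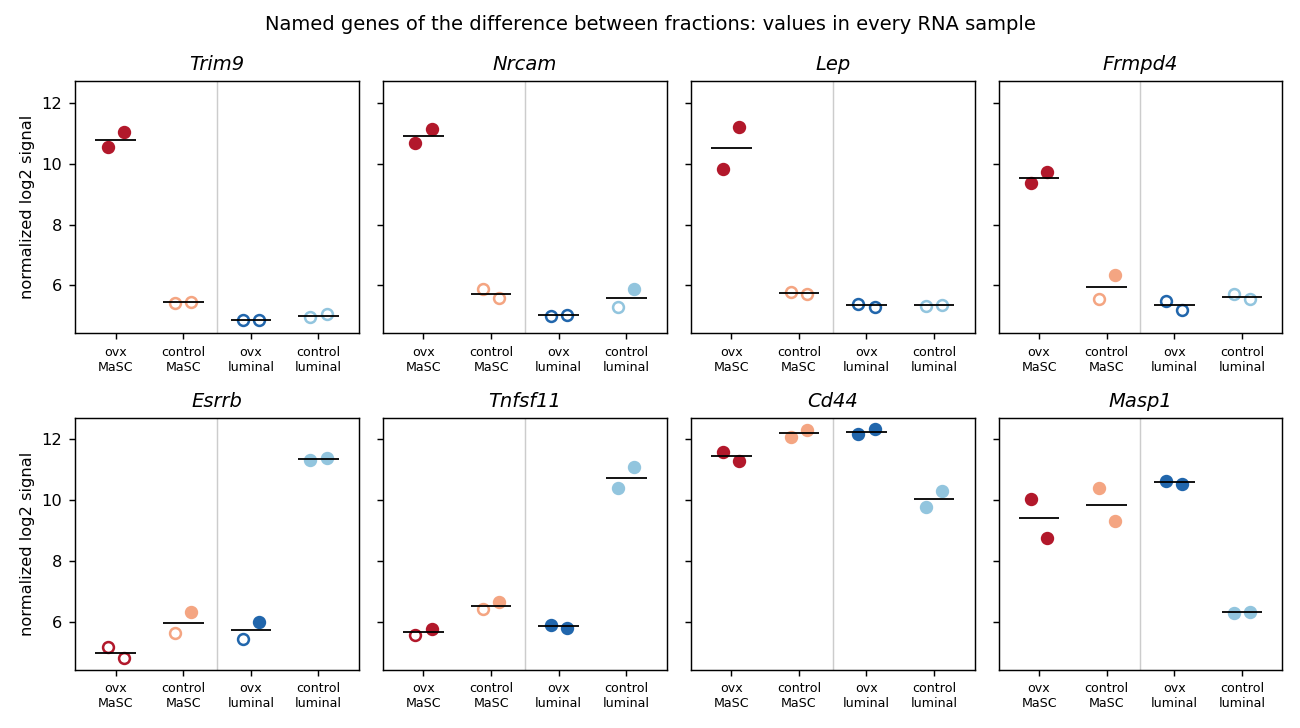
Normalized log2 signal of 8 genes in every RNA sample, for ovx MaSC-enriched, control MaSC-enriched, ovx luminal and control luminal cells from left to right. Each point is 1 RNA sample (open where the probe was not detected) and each line a group mean of 2. Trim9, Nrcam, Lep and Frmpd4 are high in ovx MaSC-enriched cells alone, Esrrb and Tnfsf11 in control luminal cells alone, and Cd44 and Masp1 are low in control luminal cells alone.

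On the luminal side a nuclear receptor gene and RANK ligand fell. Esrrb, an orphan nuclear receptor that binds extended oestrogen receptor half-sites, had 5.17 and 4.81 in ovx MaSC-enriched cells, against 5.63 and 6.34 in controls. In luminal cells it had 5.45 and 6.00 in ovx, against 11.33 and 11.39 in controls. The control luminal samples were thus the high ones, and the other 6 lay near background. The effect was −0.99 in MaSC-enriched cells (adjusted p = 0.504) and −5.63 in luminal cells (adjusted p = 0.0112), and the difference 4.64 (SE 0.52, 95% interval 3.40 to 5.87, adjusted p = 0.113).

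Tnfsf11 encodes RANK ligand, through which progesterone-sensing cells drive growth of their neighbours. It had 5.58 and 5.79 in ovx MaSC-enriched cells, against 6.42 and 6.65 in controls, and 5.91 and 5.81 in ovx luminal cells, against 10.41 and 11.09 in controls. Ovx and control samples did not overlap in either fraction, which 14.9% of all genes also showed in 1 direction. The MaSC-enriched effect was −0.85 (adjusted p = 0.525) and the luminal effect −4.89 (adjusted p = 0.0112). The difference was 4.03 (SE 0.47, 95% interval 2.92 to 5.14, adjusted p = 0.113).

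The promoters of both genes are shown because these are the named genes that fell in luminal cells with the smallest p of the difference. They are RefSeq sequences of build GRCm38.p6, from 250 bases before to 50 after a start, on the strand of the gene. Esrrb has starts at chr12:86360867-86361166 and chr12:86421394-86421693 on the plus strand, and Tnfsf11 one at chr14:78307994-78308293 on the minus strand. Capitals mark a motif match.
Esrrb first start: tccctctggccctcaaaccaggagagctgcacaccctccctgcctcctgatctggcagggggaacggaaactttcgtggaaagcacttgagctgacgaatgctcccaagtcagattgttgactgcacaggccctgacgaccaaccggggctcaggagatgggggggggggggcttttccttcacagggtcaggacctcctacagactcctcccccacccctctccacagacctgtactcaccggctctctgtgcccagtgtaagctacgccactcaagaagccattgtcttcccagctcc
Esrrb second start: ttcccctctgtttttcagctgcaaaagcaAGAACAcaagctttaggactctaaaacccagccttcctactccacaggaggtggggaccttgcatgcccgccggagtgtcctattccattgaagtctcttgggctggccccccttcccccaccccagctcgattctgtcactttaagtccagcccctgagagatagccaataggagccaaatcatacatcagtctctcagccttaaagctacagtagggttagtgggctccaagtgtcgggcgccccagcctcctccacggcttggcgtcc
Tnfsf11: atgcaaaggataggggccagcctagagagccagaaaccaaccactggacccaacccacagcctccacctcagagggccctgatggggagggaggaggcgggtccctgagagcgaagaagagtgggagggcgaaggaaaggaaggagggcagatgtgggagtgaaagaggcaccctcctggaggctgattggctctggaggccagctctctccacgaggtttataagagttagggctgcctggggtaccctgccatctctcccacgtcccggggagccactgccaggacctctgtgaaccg
Searched on both strands were AGAACA, the half-site of progesterone and glucocorticoid receptors, AGGTCA, the nuclear receptor half-site, TCAAGGTCA, which contains it, and the oestrogen response element, which also contains it. The only match was 1 AGAACA at the second Esrrb start. Of 32851 promoters of this length, 19% held AGAACA, 16.3% AGGTCA, 0.423% TCAAGGTCA and 0.0548% the oestrogen response element.

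Hormone-sensing luminal markers are given beside RANK ligand, which such cells make. None passed the test of the luminal effect. Of that list 9 of 12 genes were tested, with an average signal of 9.85 and 9.71 in ovx luminal cells, against 10.01 and 8.84 in controls, and a median luminal effect of 0.35. Esr1, the oestrogen receptor gene, had 9.57 and 9.05 in ovx MaSC-enriched cells, against 8.50 and 7.44 in controls, and 12.76 and 12.46 in ovx luminal cells, against 11.16 and 10.06 in controls (difference −0.67, unadjusted p = 0.385). A second Esr1 probe gave a difference of −1.74 with effects of −1.11 in MaSC-enriched and 0.63 in luminal cells. Pgr, the progesterone receptor gene and a target of oestrogen, was below detection in MaSC-enriched samples and had 6.32 and 7.06 in ovx luminal cells, against 9.66 and 7.81 in controls. Its difference was 1.97 (95% interval −0.08 to 4.01, unadjusted p = 0.0575).

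The remaining RANK ligand and ovarian hormone genes gave no common direction. Of the RANK ligand pathway 12 of 14 genes were tested, with a median of 0.08. The list had 1 positive and 2 negative differences at an unadjusted p under 0.05, where 2.8% and 2.32% of all genes had them. Rspo1, a secreted enhancer of Wnt signals that RANK ligand is known to induce, had 5.09 and 5.18 in ovx luminal cells, against 7.20 and 9.51 in controls (difference 2.26, unadjusted p = 0.064). Tnfrsf11a, the RANK receptor gene, had 10.45 and 9.12 in ovx MaSC-enriched cells, against 9.28 and 7.12 in controls, with a difference of 1.85 (95% interval −0.66 to 4.37). Of 17 tested ovarian hormone target genes 1 was positive, Tnfsf11, and 1 negative, the cyclin gene Ccnd1 (−1.38), at an unadjusted p under 0.05. The shares over all genes were again 2.8% and 2.32%, and the median of the list was −0.13. Wnt4, a progesterone target, had 11.04 and 11.11 in ovx luminal cells, against 11.20 and 10.69 in controls, and its difference was 0.48 (95% interval −0.94 to 1.89).

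Pdlim4, an actin-associated LIM protein gene, was the named gene of this direction that all arrays detected. It had 13.75 and 13.78 in ovx MaSC-enriched cells, against 13.44 and 13.64 in controls, and 9.26 and 9.83 in ovx luminal cells, against 12.41 in both controls. It fell by 2.86 in luminal cells (adjusted p = 0.0378), and the difference was 3.09 (SE 0.44, 95% interval 2.05 to 4.12, adjusted p = 0.212). A dimmer probe gave 1.06.

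Among genes that fell in luminal cells and had small effects in MaSC-enriched cells were Agtr1a, Bmp3 and Bdnf. Agtr1a, an angiotensin receptor gene, had 8.70 and 8.33 in ovx MaSC-enriched cells, against 9.28 and 8.69 in controls, and 9.50 and 10.33 in ovx luminal cells, against 13.51 and 13.18 in controls (difference 2.96, adjusted p = 0.371). Bmp3, a growth factor gene of the BMP family, was below detection in MaSC-enriched cells and had 6.22 and 5.68 in ovx luminal cells, against 11.25 and 9.57 in controls (difference 4.42, adjusted p = 0.324). Bdnf, the gene of brain-derived neurotrophic factor, was high in MaSC-enriched cells, with 10.99 and 11.99 in ovx, against 11.75 and 11.80 in controls. In luminal cells it had 5.33 and 5.38 in ovx, against 9.88 and 8.82 in controls, and the difference was 3.72 (adjusted p = 0.324). Of its 4 probes 3 were positive, and 1 had an unadjusted p under 0.05.

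All 8 named genes of the other direction had higher signals in ovx than in control luminal cells and an effect below 0 in MaSC-enriched cells. For Dgkk and Myh4 the MaSC-enriched effect lay between undetected signals, so its sign carries no meaning. It was −0.01 for Myh4, and a second Dgkk probe gave 0.09. In 6 of the 8 genes, given first, the luminal effect was the larger one. Cd44, a surface receptor for hyaluronan, had 11.59 and 11.31 in ovx MaSC-enriched cells, against 12.10 and 12.32 in controls. In luminal cells it had 12.18 and 12.34 in ovx, against 9.79 and 10.29 in controls. Ovx luminal samples thus lay within the range of the MaSC-enriched samples or just above it. The difference was −2.98 (SE 0.45, 95% interval −4.03 to −1.93, adjusted p = 0.221), and all 7 Cd44 probes were negative, from −3.75 to −1.37, with 4 at an unadjusted p under 0.05.

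Masp1, a protease gene of the complement system, had 10.05 and 8.76 in ovx MaSC-enriched cells, against 10.40 and 9.32 in controls, while luminal cells had 10.65 and 10.55 in ovx, against 6.31 and 6.34 in controls. It rose by 4.28 in luminal cells (adjusted p = 0.0482), and the difference was −4.73 (SE 0.73, 95% interval −6.45 to −3.02, adjusted p = 0.252). The ovx luminal samples lay just above the highest MaSC-enriched sample. Hs3st3a1, which encodes an enzyme that sulfates heparan chains, had 9.61 and 9.73 in ovx MaSC-enriched cells, against 9.93 and 10.54 in controls, and 8.01 and 8.16 in ovx luminal cells, against 5.90 and 5.66 in controls (difference −2.87, adjusted p = 0.268, and −1.36 with signals raised to the highest detection floor).

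Dgkk, a diacylglycerol kinase gene, was detected on ovx luminal arrays alone. Its signals lay between 4.79 and 5.33 in MaSC-enriched samples, and were 9.39 and 8.82 in ovx luminal cells, against 5.07 and 5.11 in controls. The rise in luminal cells was at least 10.1-fold. The limma adjusted p of the luminal effect, with undetected signals taken as they were, was 0.019. The difference was −4.05 (SE 0.48, adjusted p = 0.113). With signals raised to the highest detection floor the difference was −1.82. A second probe gave −3.54. Kndc1, a gene expressed in neurons, had 5.61 and 5.27 in ovx MaSC-enriched cells, against 6.41 and 7.05 in controls, and 8.28 and 8.33 in ovx luminal cells, against 5.41 and 6.25 in controls. With dim signals taken as they were, its effects were −1.29 in MaSC-enriched and 2.48 in luminal cells (difference −3.77, adjusted p = 0.221). The difference was −1.02 with signals raised to the highest detection floor, 7.29. All MaSC-enriched signals of Kndc1 lay under that floor, so opposite directions are not established. Over all probes 23 (0.11%) had opposite effects with an unadjusted p under 0.05 in each fraction.

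Among the 37 lists the skeletal muscle genes had the median difference farthest from 0. Myh4, a fast myosin gene, was below detection in all MaSC-enriched samples, from 4.88 to 5.01, and had 7.33 and 7.77 in ovx luminal cells, against 4.93 and 4.86 in controls (difference −2.67, adjusted p = 0.253). With signals raised to the highest detection floor, 7.29, its difference was −0.27. Ckm, the muscle creatine kinase gene, had 5.67 and 5.09 in ovx MaSC-enriched cells, against 4.82 and 5.03 in controls, and 8.70 and 9.38 in ovx luminal cells, against 5.63 and 4.88 in controls (difference −3.34, adjusted p = 0.324). All 16 tested muscle genes had a negative difference, 12 with an unadjusted p under 0.05, where 2.32% of all genes were negative at that level. The median was −3.03, against 0.06 over all genes. The list was chosen with earlier results of these data known, and Myh4 was kept through ovx luminal samples alone. Its counts are therefore given as a description. The list averaged 7.23 and 6.38 in ovx MaSC-enriched cells, against 7.06 and 5.95 in controls, and 9.65 and 10.28 in ovx luminal cells, against 7.09 and 6.22 in controls. The part of muscle fibre RNA in the other luminal results was not tested.

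Ctnnd2 and Kif1a, both known from neurons, had lower signals in ovx than in control MaSC-enriched cells and small luminal effects. Ctnnd2, the delta-catenin gene, had 5.62 and 6.36 in ovx MaSC-enriched cells, against 8.66 and 9.59 in controls, and 5.88 and 6.02 in ovx luminal cells, against 5.12 and 5.42 in controls. Its difference was −3.82 (SE 0.60, adjusted p = 0.253), −3.24 with signals raised to their own detection floors and −1.83 with the highest floor. Kif1a, a motor protein gene for transport along axons, was detected in all samples. It had 8.01 and 8.54 in ovx MaSC-enriched cells, against 10.83 and 10.51 in controls, and 7.03 and 7.19 in ovx luminal cells, against 6.72 and 6.73 in controls (difference −2.78, adjusted p = 0.272). Neither effect in MaSC-enriched cells passed (adjusted p = 0.0656 for both genes).

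The 16 genes named for the difference were chosen by rule, as those of smallest p whose ovx pools did not overlap the control pools in the MaSC-enriched minus luminal gap, so their lack of overlap is no result. Among all genes 35.3% showed no such overlap. Without the control replicate 2 pool, all 16 kept their direction and none passed, with an adjusted p of 0.148 for 15 of them and 0.153 for Myh4. In that setting Trim9 had a difference of 5.47, Esrrb 4.96, Tnfsf11 3.81, Cd44 −3.12 and Masp1 −5.28.

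**Figure D3:**
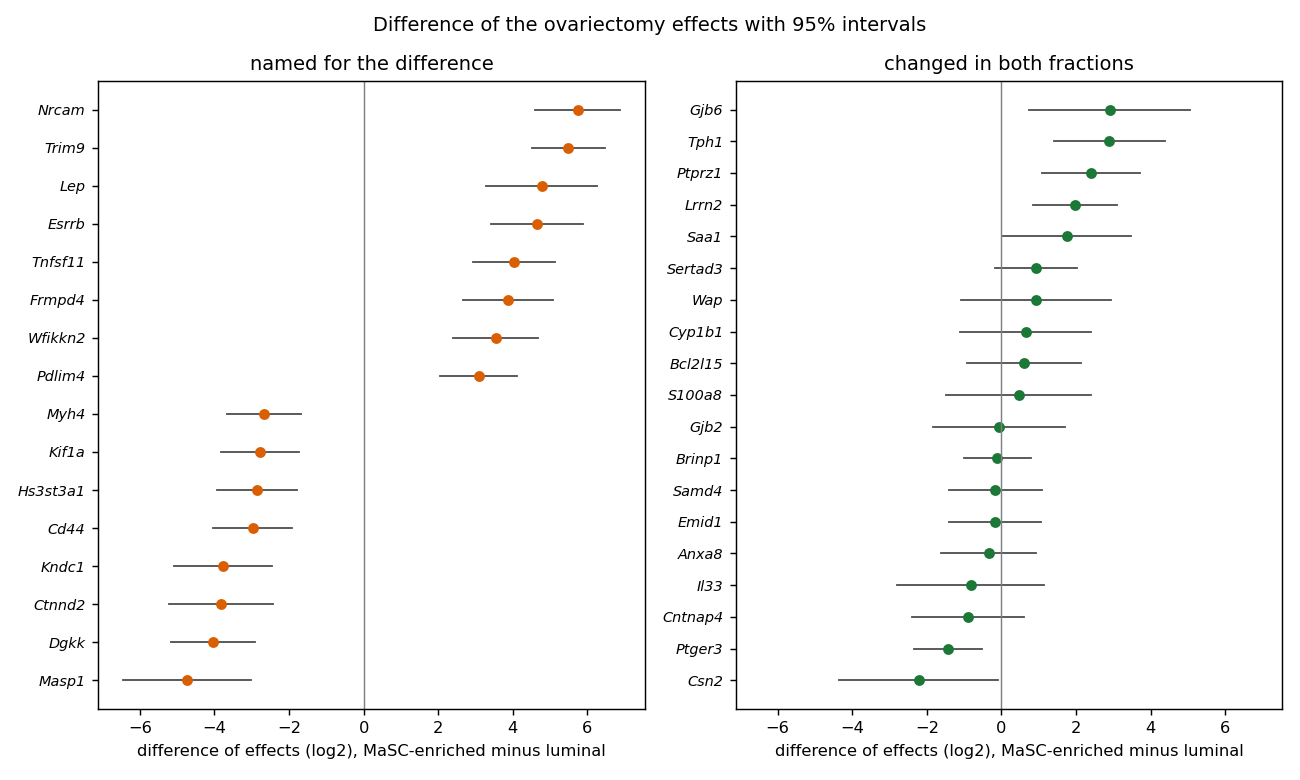
Difference of the ovariectomy effects (MaSC-enriched minus luminal, log2) with its 95% interval from the limma fit, for the genes named for the difference (left) and the genes that changed in both fractions (right). The left intervals exclude 0 because small p-values chose these genes, and on the right 12 of 19 intervals include 0.

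A probe was taken as changed in both fractions when the average of the 2 effects passed, each effect had the same sign with an unadjusted p under 0.05, and the difference did not pass. In limma the average effect passed for 44 of 20995 probes (0.21%), and 32 (0.152%) met the full rule, 13 higher (0.0619%) and 19 lower (0.0905%) in ovx cells. The higher ones stand for 11 genes and the lower ones for 14, and 7 of the 32 could not be named. The luminal effect was the larger one for 23 of the 32. Equal change is not implied, since 12 of the 32, among them Esrrb and Tnfsf11, had a difference with an unadjusted p under 0.05. All MaSC-enriched signals of Esrrb and Tnfsf11 lay under 7.29, the highest detection floor of any array. They met the rule through dim signals there, so a fall in MaSC-enriched cells is not established for them. With signals raised to that floor their differences were 4.07 and 3.46.

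Csn2, the beta-casein gene, had the largest average loss among the named genes of both fractions. It had 5.46 and 5.78 in ovx MaSC-enriched cells, against 14.20 and 13.95 in controls, and 7.45 and 9.60 in ovx luminal cells, against 14.93 and 14.59 in controls. All 4 control samples were high, and ovx MaSC-enriched cells were near background. Csn2 fell by 7.35 on average (adjusted p = 0.00643), and the difference was −2.22 (95% interval −4.35 to −0.09, unadjusted p = 0.0432). Wap, the whey acidic protein gene, had 4.84 and 4.96 in ovx MaSC-enriched cells, against 8.15 and 8.55 in controls, and 6.68 and 6.49 in ovx luminal cells, against 9.95 and 11.97 in controls. It fell by 3.91 on average (adjusted p = 0.0324), with a difference of 0.92 (95% interval −1.10 to 2.94).

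Other milk genes did not meet the rule, and some did not fall. Csn3, the kappa-casein gene, had an average effect of −0.17, and Ltf, the lactoferrin gene, one of 2.08, neither of which passed. Csn1s1, the alpha-S1-casein gene, had 10.58 and 10.41 in ovx MaSC-enriched cells, against 14.47 and 14.06 in controls, while luminal cells had 12.74 and 13.97 in ovx, against 14.84 and 14.76 in controls. Its difference was −2.33 (unadjusted p = 0.00654, adjusted p = 0.662). Of the milk protein and secretory list 18 of 21 genes were tested, with a median effect of −1.52 in MaSC-enriched and −1.08 in luminal cells. The differences of the list ran both ways, with a median of −0.12. It had 3 positive and 2 negative ones at an unadjusted p under 0.05, where 2.8% and 2.32% of all genes had them. Of the listed genes 4 passed the test of the average effect, all lower, where 0.124% of all genes did.

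S100a8 and Saa1 also fell in both fractions. S100a8, which encodes a calcium-binding protein of inflammation, had 5.56 and 5.49 in ovx MaSC-enriched cells, against 9.66 and 9.20 in controls, and 6.25 and 8.09 in ovx luminal cells, against 11.25 and 11.80 in controls. It fell by 4.13 on average (adjusted p = 0.0267), with a difference of 0.46 (95% interval −1.49 to 2.41). Saa1, the serum amyloid A gene, fell by 4.07 on average (adjusted p = 0.0215). Its second probe gave an average effect of −1.49 and did not pass. Related acute-phase genes did not pass either, with average effects of −1.08 for Saa2, 0.57 for Saa3 and −0.15 for Lcn2. Immune cell markers averaged 8.25 and 7.44 in ovx MaSC-enriched cells, against 6.64 and 7.25 in controls, over 7 of 12 genes tested, while luminal cells had 5.91 and 6.66 in ovx, against 6.04 and 6.73 in controls. Their part in the S100a8 result was not tested.

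Bcl2l15, a gene related to BCL2 regulators of cell death, had 5.72 and 5.76 in ovx MaSC-enriched cells, against 9.43 and 9.52 in controls, and 7.44 and 7.60 in ovx luminal cells, against 11.15 and 12.56 in controls. The effect was −3.74 in MaSC-enriched and −4.34 in luminal cells, and the average −4.04 (adjusted p = 0.0137). The difference was 0.60 (95% interval −0.93 to 2.13), and ran from −0.10 to 2.13 over the settings tried. The connexin gene Gjb2, for a gap junction protein, had 7.06 and 6.15 in ovx MaSC-enriched cells, against 9.79 and 9.81 in controls, and 8.85 and 9.23 in ovx luminal cells, against 11.46 and 12.89 in controls (difference −0.06, 95% interval −1.82 to 1.70). A pair of dimmer Gjb2 probes gave differences of 0.80 and 2.21 (unadjusted p = 0.0127 for the larger one), with average effects of −2.52 and −1.28 that did not pass. Its relative Gjb6 had 4.91 and 5.28 in ovx MaSC-enriched cells, against 6.77 and 8.12 in controls, and 4.96 and 5.13 in ovx luminal cells, against 9.42 and 11.17 in controls. The Gjb6 difference was 2.90 (95% interval 0.74 to 5.06, unadjusted p = 0.0153).

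Other genes that fell in both fractions were Cyp1b1, Emid1 and Tph1. Cyp1b1, an enzyme gene for oestrogen oxidation, had 8.12 and 9.09 in ovx MaSC-enriched cells, against 11.55 and 11.36 in controls, and 5.61 and 6.46 in ovx luminal cells, against 8.97 and 10.09 in controls. Emid1, an extracellular matrix gene, had 8.21 and 8.50 in ovx MaSC-enriched cells, against 10.83 and 11.42 in controls, and 6.13 and 6.37 in ovx luminal cells, against 8.50 and 9.19 in controls. Their differences were 0.65 (95% interval −1.10 to 2.40) and −0.17 (−1.41 to 1.07). Tph1, the gene of the enzyme that starts serotonin synthesis outside the brain, had a luminal signal of 6.83 and 7.41 in ovx, against 10.99 and 11.78 in controls (difference 2.90, unadjusted p = 0.00228).

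**Figure D4:**
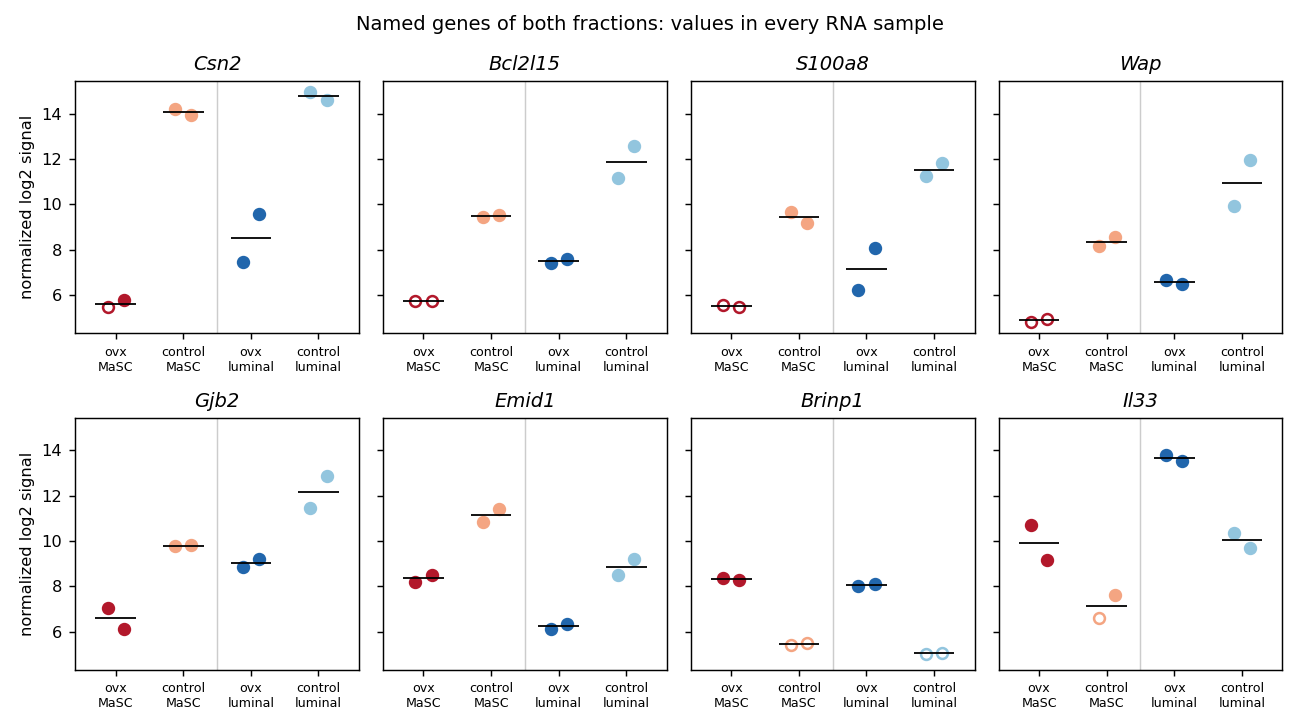
Normalized log2 signal of 8 genes that changed in both fractions, in every RNA sample, for ovx MaSC-enriched, control MaSC-enriched, ovx luminal and control luminal cells from left to right. Each point is 1 RNA sample (open where the probe was not detected) and each line a group mean of 2. Csn2, Bcl2l15, S100a8, Wap, Gjb2 and Emid1 are lower, and Brinp1 and Il33 higher, in ovx than in control cells of either fraction.

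Fewer named genes rose in both fractions. Brinp1, a gene expressed in neurons, had 8.39 and 8.30 in ovx MaSC-enriched cells, against 5.41 and 5.52 in controls. In luminal cells it had 8.01 and 8.09 in ovx, against 5.03 and 5.09 in controls. All its control signals lay under 5.73, the lowest detection floor of any array. For each rise only a lower bound, measured from the detection floor, could be given, and whether the changes were equal cannot be decided. With undetected signals taken as they were, which gives no such bound, Brinp1 rose by 2.93 on average (limma adjusted p = 0.00659). It then passed in each fraction alone. Its difference was then −0.11 (95% interval −1.01 to 0.80). Over the settings tried its average effect was as low as 0.91. Il33, the gene of an alarm cytokine of epithelial cells, had 10.72 and 9.15 in ovx MaSC-enriched cells, against 6.62 and 7.64 in controls, and 13.80 and 13.53 in ovx luminal cells, against 10.35 and 9.71 in controls. Its average rise was 3.22 (adjusted p = 0.0491) and its difference −0.83 (95% interval −2.79 to 1.14).

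Anxa8, an annexin gene, had 8.13 and 7.49 in ovx MaSC-enriched cells, against 5.32 and 5.12 in controls, and 8.88 and 9.50 in ovx luminal cells, against 6.51 and 6.02 in controls. It rose by 2.75 on average (adjusted p = 0.0267). A dimmer Anxa8 probe did not pass (average effect 1.42, adjusted p = 0.0907), with effects of 0.48 in MaSC-enriched and 2.35 in luminal cells and a difference of −1.86 (unadjusted p = 0.00504). Cntnap4, Samd4 and Sertad3 rose by 2.52, 2.26 and 2.03 on average, with differences between −0.90 and 0.93 whose 95% intervals include 0. Lrrn2 and Ptprz1, both genes of neural surface proteins, had the larger effect in MaSC-enriched cells, with a difference of 1.97 for Lrrn2. Ptprz1 had 10.56 and 10.87 in ovx MaSC-enriched cells, against 7.70 and 6.79 in controls, and 8.86 and 8.88 in ovx luminal cells, against 8.07 and 7.53 in controls (difference 2.40, unadjusted p = 0.00333). Ptger3, a prostaglandin receptor gene, had a luminal signal of 7.20 and 7.27 in ovx, against 5.14 and 4.90 in controls (difference −1.43, unadjusted p = 0.00756). These signals all lay under 7.29, the highest detection floor of any array. Over the settings tried the average effect of Ptger3 was as low as 0.0, so its rise in both fractions rests on dim signals.

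All 21 genes named here as changed in both fractions were chosen without overlap of ovx and control samples in either fraction, which 14.9% of all genes also showed in 1 direction. Their adjusted p-values come from a fit that leaves out the shared pool. With the pool as a random block the average effect passed for 11 probes in place of 44, and for 7 of these 21 genes. The class depends on single samples. It held 0 probes without either ovx MaSC-enriched sample, 2 and 5 without ovx luminal replicate 1 and 2, and 9 and 5 without control luminal replicate 1 and 2. Without control MaSC-enriched replicate 1 and 2 it held 184 and 72, and without the control replicate 2 pool 17.

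Genes called in 1 fraction alone were set against their effect in the other. Of the 13 probes called in MaSC-enriched but not in luminal cells (16 called in all, 0.0762%), 12 had a luminal effect under 1 and 7 an effect of the same sign, where 64.6% of all probes had the same sign. For 11 of the 13 no luminal array detected the probe, so these passed the filter on dim probes through MaSC-enriched samples. Of the 30 called in luminal but not in MaSC-enriched cells (33 in all, 0.157%), 22 had a MaSC-enriched effect under 1 and 24 an effect of the same sign, and 12 were undetected on every MaSC-enriched array. Csn2 and Brinp1 were the named genes called in both. None of these calls in a single fraction passed the test of the difference. An unadjusted p under 0.05 there, found for 13 of the 13 and 29 of the 30 against 4.53% of all probes, follows largely from choosing probes called in 1 fraction alone and is given as a description.

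Across all probes the 2 effects correlated at 0.42, and at 0.10 without the control replicate 2 pool. The points share their pools and arrays, so the values are a description of these 4 pools. DNA replication and mitosis genes had a median effect of −1.97 in MaSC-enriched and −2.16 in luminal cells over 28 tested genes. Without that pool the medians were −0.04 and −0.66, while the median difference was 0.62 with it and 0.63 without it. No gene of the list had a difference with an unadjusted p under 0.05.

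**Figure D5:**
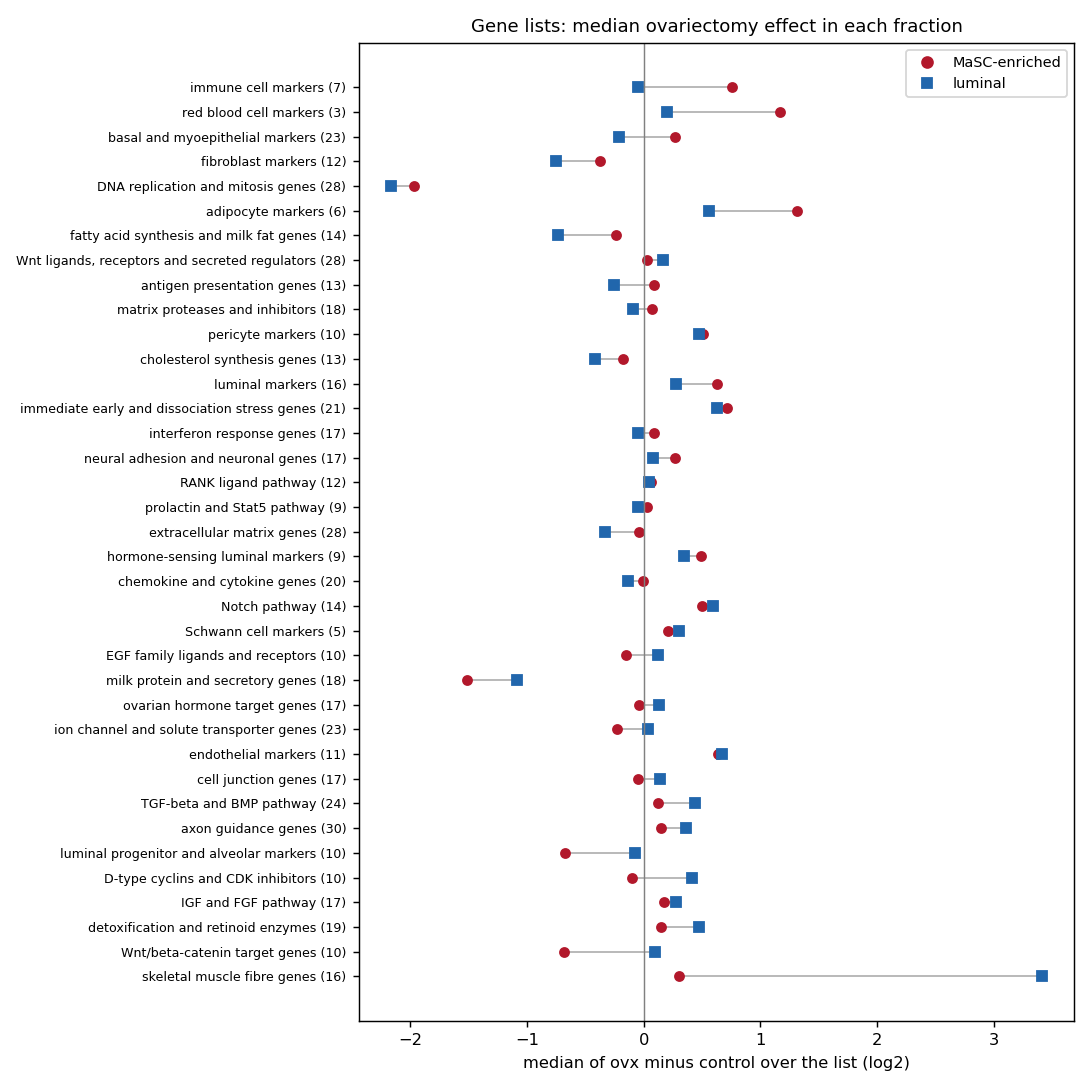
Median ovariectomy effect (ovx minus control, log2) over the tested genes of 37 gene lists in MaSC-enriched cells (red circles) and luminal cells (blue squares), with the number of tested genes in brackets, ordered by median difference. Skeletal muscle genes stand apart with 0.31 in MaSC-enriched and 3.41 in luminal cells, while the medians of the DNA replication and milk lists lie below −1 in both fractions.

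Basal and myoepithelial markers leaned towards MaSC-enriched cells. Of 23 tested markers 20 had a positive difference, and 6 were positive and none negative with an unadjusted p under 0.05, where 2.8% and 2.32% of all genes were. Over all probes 11394 of 20995 had a positive difference. The median of the list was 0.85, and 0.55 without the control replicate 2 pool. The contractile genes Cnn1 and Lmod1 had ovx effects of 2.10 and 1.82 in MaSC-enriched cells and 0.18 and 0.13 in luminal cells, and neither passed after adjustment. The basal keratin gene Krt14 had a difference of 2.05 (unadjusted p = 0.0376), with 14.76 and 14.36 in ovx MaSC-enriched cells, against 14.87 and 14.51 in controls, while luminal cells had 9.43 and 10.85 in ovx, against 11.75 and 12.90 in controls. Luminal markers had a median difference of 0.16 over 16 tested genes, and luminal progenitor and alveolar markers −0.43 over 10, all 10 negative and none with an unadjusted p under 0.05. Without the control replicate 2 pool these medians were 0.03 and −1.11.

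Wnt ligands, receptors and secreted regulators had a median of 0.38 over 28 tested genes, with 2 positive and 3 negative differences at an unadjusted p under 0.05, where the shares over all genes were 2.8% and 2.32%. Fzd2, a Wnt receptor gene, had 7.91 and 7.68 in ovx MaSC-enriched cells, against 5.55 and 6.24 in controls. The 5.55, of control replicate 1, lay under its array's detection floor of 7.29. The Fzd2 effect in luminal cells was −0.37. Its difference was 2.28 (adjusted p = 0.453), and as low as 0.51 over the settings tried. Ror2, another Wnt receptor gene, ran the other way, with 7.16 and 7.38 in ovx MaSC-enriched cells, against 8.31 and 9.36 in controls, and 8.36 and 8.37 in ovx luminal cells, against 7.60 and 7.03 in controls (difference −2.61, adjusted p = 0.49). Wnt/beta-catenin target genes had a median of −0.69 over 10 tested genes, and Cd44, Nkd2 and Ccnd1 were the 3 with an unadjusted p under 0.05, all negative.

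Axon guidance genes gave some of the larger negative differences. Slit2, a secreted guidance cue, had 8.84 and 9.10 in ovx MaSC-enriched cells, against 10.21 and 9.77 in controls, and 8.77 and 8.72 in ovx luminal cells, against 5.51 and 6.78 in controls. Its difference was −3.62 (unadjusted p = 0.00068, adjusted p = 0.324), though 1 of its 4 probes was positive. Nrp1, a co-receptor for semaphorins and VEGF, had 11.36 and 11.42 in ovx luminal cells, against 8.15 and 8.61 in controls (difference −2.21, adjusted p = 0.852). Over 30 tested genes of the list 2 were positive and 3 negative at an unadjusted p under 0.05, against 2.8% and 2.32% of all genes, with a median of −0.22.

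In the TGF-beta and BMP list the contrasts ran both ways around a median of −0.20 over 24 tested genes. Inhba, the gene of an activin subunit, had 8.56 and 7.29 in ovx MaSC-enriched cells, against 7.01 and 8.64 in controls. It averaged 10.75 ± 0.36 in ovx luminal cells, against 7.61 ± 0.87 in controls (SD, n = 2 each), and the difference was −3.04 (adjusted p = 0.842). Fst, the gene of the activin antagonist follistatin, had 10.48 and 10.99 in ovx MaSC-enriched cells, against 13.13 and 13.27 in controls, with an effect of −2.46 there and −0.56 in luminal cells (difference −1.91, adjusted p = 0.662). Fabp3, a fatty acid binding protein gene of the milk fat list, had 7.69 and 8.54 in ovx MaSC-enriched cells, against 8.03 and 8.54 in controls, and 5.64 and 5.61 in ovx luminal cells, against 9.15 and 11.34 in controls (difference 4.46, adjusted p = 0.457). Aldh3a1, a detoxification enzyme gene, had a MaSC-enriched effect of 0.79 and rose by 3.77 in luminal cells (adjusted p = 0.0428), with 10.27 and 9.92 in ovx, against 6.28 and 6.38 in controls (difference −2.98, adjusted p = 0.408).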

How the data were processed

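RNA of 8 sorted samples was measured on 12 Illumina BeadChip arrays. The authors deposited an intensity and a detection p-value per probe and array. BeadStudio and limma appear in the submitters' processing notes without a role, and their versions are not given in the sources used here. The authors' deposited normalized table was found to be on a log2 scale and served as an alternative. From the intensities, limma 3.58.1 in R 4.3.3 was used for background correction (neqc, offset 16, negative controls inferred from the detection p-values) and quantile normalization, and repeat arrays of 1 RNA entered as their mean. Kept were 20995 of 45281 probes, with a mean detection p under 0.05 in at least 2 of the 8 samples. A gene is its brightest kept probe (11292 genes). The model had 4 group means, 4 residual degrees of freedom and Benjamini-Hochberg adjustment over all kept probes.

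The number of arrays limits the precision. Samples of 1 pool carry the same pool in both fractions per the labels, and their deviations correlated at 0.37 for control and 0.13 for ovx pools. Replicates are pools of mice. The main fit treated the 8 samples as independent, so its p-values leave out the pool shared by a MaSC-enriched and a luminal sample. Where a group was not detected on any array, "at least" folds use the higher of its own signal and the lowest detected signal of each array. The steps were tested on simulated data. Named genes were the 8 per direction of smallest p with no overlap of pool gaps, up to 12 per direction changed in both fractions, up to 8 per fraction and direction called in 1 fraction, up to 4 per gene list by smallest p, and a preset set of markers. Areg and Mki67 of that set had no tested probe. The genes, lists and tests were chosen with earlier results of these data known. Alternatives covered the pool and beadchip blocks, single arrays, background, normalization, detection floors, filters, weights, the prior, single replicates and the threshold. Probes with no gene symbol in the platform annotation (10378 of 45281) were counted but not named.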

Additional observations from a re-analysis of the deposited data

How the results depend on the processing

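The 5 counts of passing probes are given here as difference, average effect, both fractions, MaSC-enriched effect and luminal effect, and were 0, 44, 32, 16 and 33. With the pool as a replicate block the difference count was 0, and the block could be fitted for the difference alone. The pool as a random block gave 2, 11 and 9 for the first 3 counts. The beadchip as a block gave 9, 217, 128, 81 and 137, beadchip 1 alone 0 for each, and beadchip 2 alone 0, 0, 0, 0 and 1. Differences passed for 4 probes without background correction and 2 with an offset of 50, with the deposited table or with sample weights. The both-fractions count was 20 in the first 3 of these. Weights gave 5 and 231 for MaSC-enriched and luminal effects, cyclic loess 6 and 73, and a prior with trend 56 for luminal effects. Raising signals to each array's own floor gave 22 average, 1 MaSC-enriched and 8 luminal calls, and a strict filter 25, 1 and 8. A common floor gave 113, 185, 53, 85 and 118. No filter gave 1, 8, 6 and 26 for the first 4 counts. An adjusted p under 0.1 gave 2, 138, 82, 59 and 112. Leaving out single samples gave 0 to 0, 0 to 260, 0 to 184, 0 to 583 and 0 to 82. Without the control replicate 2 pool the counts were 0, 23, 17, 410 and 33. The cause was not tested.

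Of 2046 recomputed gene differences 2002 kept their direction and side of the threshold, 27 came to pass and 17 changed sign. Brinp1 became 0.13 with the first array of each RNA, 0.20 on beadchip 1, 0.0025 without background correction, 0.045 with an offset of 50, 0.046 with the deposited table and 0.30 with a common floor. Epcam became 0.33 on beadchip 1 and 0.57 without the control replicate 2 pool, and ranged from −0.54 to 0.24 over single samples left out, with 0.0068 without ovx MaSC-enriched replicate 1, 0.18 without the second control MaSC-enriched sample and 0.24 without control luminal replicate 2. Over single samples left out Wnt4 ranged from −0.10 to 1.05, Krt18 from −0.015 to 1.65 and Bcl2l15 from −0.10 to 1.30. Heyl became −0.053 with each array's floor, and without the control replicate 2 pool Bcl2l15 became −0.057 and Krt8 −0.094. Of 499 recomputed average effects 243 no longer passed, and of 888 list medians 108 moved by over 1 SD. Under the strict filter only Pdlim4, Masp1, Cd44, Hs3st3a1 and Kif1a of the 16 genes named for the difference had a value, each with an adjusted p of 0.566.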

Other observations

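Matrix, growth factor and immune genes outside the comparisons above also differed between fractions in single members, none past adjustment. Nid1, a basement membrane gene, had 9.33 and 9.44 in ovx MaSC-enriched cells, against 9.67 and 10.06 in controls, and 9.44 and 9.87 in ovx luminal cells, against 6.56 and 8.26 in controls. Its difference was −2.73 (unadjusted p = 0.00877), and both of its probes were negative. Fgf7, a growth factor gene, had 8.39 and 9.09 in ovx MaSC-enriched cells, against 6.94 and 6.63 in controls, and 6.21 and 7.02 in ovx luminal cells, against 6.75 and 6.79 in controls (difference 2.11, unadjusted p = 0.00671). Socs2, a feedback inhibitor of prolactin and growth hormone signals, had 11.17 and 11.65 in ovx MaSC-enriched cells, against 11.76 and 12.41 in controls, and 8.85 and 10.01 in ovx luminal cells, against 11.88 and 12.29 in controls (difference 1.98, unadjusted p = 0.0199).

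Interferon response genes had a median difference of 0.13 over 17 tested genes, and chemokine and cytokine genes 0.04 over 20, none of them with an unadjusted p under 0.05. Antigen presentation genes had a median of 0.35 over 13 tested genes. Nlrc5, a regulator of MHC class I genes, was the 1 member with an unadjusted p under 0.05. Its difference was −2.34, and 2.32% of all genes were negative at that level. It had 7.75 and 6.49 in ovx MaSC-enriched cells, against 8.98 and 10.14 in controls. In luminal cells it had 7.84 and 7.95 in ovx, against 8.08 and 7.92 in controls.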
